A study of Mus musculus with 17 samples.

Results

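The forkhead genes outside the Foxa group are 36 of the 22367 protein-coding genes of the mouse annotation used here. They were taken by name: autosomal protein-coding genes whose symbol is Fox, a letter and a number, without Foxa1, Foxa2 and Foxa3. H3K27ac HiChIP, which counts contacts between chromatin regions that carry a mark of active promoters and enhancers, was measured at RA-day 4 in 17 libraries. All came from embryoid bodies (EBs) made from mouse embryonic stem cells in hanging drops and kept in 0.5 µM retinoic acid (RA) for 4 days, with no untreated group. The 12 bulk libraries hold unsorted EB cells, and the 5 cluster2 libraries hold cells sorted by FACS as positive for both EpCAM and CD38, called double positive below. Sorting was done in 5 independent experiments, but no source used here ties each double positive library to a sort of its own or says that the bulk libraries are separate cultures, so p-values measure the spread between these libraries. Bulk EBs also contain double positive cells, and in bulk a smaller share of a cell type and fewer contacts per cell cannot be told apart.

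Forkhead proteins bind DNA through a winged-helix domain, and the family sorts into lettered groups that differ outside it. FoxO proteins are held out of the nucleus when PI3K and AKT signal, Foxh1 brings Smad proteins to Nodal target genes, Foxm1 acts on genes of mitosis, and Foxj1 drives the making of motile cilia. Foxp and Foxk proteins act largely as repressors, and many of the remaining members, such as Foxc2 in mesoderm, mark single lineages of the embryo. Foxa genes, which open chromatin in endoderm, are used below only for comparison.

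For each gene, the read pairs of all loops with an anchor within 5 kb of the start site (TSS) were summed. The deposited loop files hold 65178 to 241202 read pairs per bulk library and 50508 to 118179 per double positive library. The 36 genes together received 1469 bulk and 948 double positive read pairs, in 1107 distinct loops. Of these loops, 938 had a bulk and 265 a double positive read pair, and 96 had both. A loop had a single read pair in 76.2% of bulk and 51.3% of double positive cases, which leaves the value of such a loop open to large counting error. Intervals and limits from counts cover counting error only, since PCR copies are not independent molecules.

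The start-site regions of 4 members are shown because the results below turn on them. Foxj2 was the only member called higher in double positive cells, Foxp4 the only member whose libraries were all lower without overlap, Foxo3 a member called lower over all loops and higher over loops between shared anchors, and Foxp2 the member with the most bulk read pairs among those without a double positive read pair. Each is the 200 bases before the TSS in mm9, 5′ to 3′ on the strand of the gene, with the letters GATC, where the MboI enzyme of the assay cuts, in capitals. Foxj2 lies on the plus strand at chr6:122769732-122769931, Foxp4 on the minus strand at chr17:48061595-48061794, Foxo3 on the minus strand at chr10:41996562-41996761 and Foxp2 on the plus strand at chr6:14851149-14851348.
Foxj2: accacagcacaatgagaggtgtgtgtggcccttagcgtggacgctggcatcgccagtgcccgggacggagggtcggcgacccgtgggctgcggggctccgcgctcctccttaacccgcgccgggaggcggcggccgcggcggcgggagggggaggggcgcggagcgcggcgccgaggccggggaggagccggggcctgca
Foxp4: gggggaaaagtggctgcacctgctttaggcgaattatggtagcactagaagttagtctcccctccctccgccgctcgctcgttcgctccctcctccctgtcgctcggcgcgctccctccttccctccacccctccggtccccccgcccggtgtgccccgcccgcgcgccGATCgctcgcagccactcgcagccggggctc
Foxo3: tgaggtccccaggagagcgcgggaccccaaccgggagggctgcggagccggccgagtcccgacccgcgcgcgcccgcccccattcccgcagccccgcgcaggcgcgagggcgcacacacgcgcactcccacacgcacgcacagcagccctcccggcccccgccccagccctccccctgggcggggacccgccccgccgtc
Foxp2: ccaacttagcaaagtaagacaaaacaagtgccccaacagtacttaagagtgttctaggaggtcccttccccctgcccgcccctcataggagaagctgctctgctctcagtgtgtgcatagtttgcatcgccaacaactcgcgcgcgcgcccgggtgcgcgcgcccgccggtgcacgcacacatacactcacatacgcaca
These stretches hold 28 CpG pairs in Foxj2, 22 in Foxp4, 28 in Foxo3 and 15 in Foxp2. The median was 13 over the 36 members and 7 over all 22367 genes. Members with a double positive read pair had a median of 15 and a range of 2 to 35, and members without one a median of 13 and a range of 2 to 28, so the ranges overlapped almost entirely. The letters GATC stood in 27.8% of the members' stretches and in 32.9% of all genes' stretches, and only Foxp4 has them among the 4 shown. The forkhead core TGTTTAC, read on both strands, was in no member's stretch and in 2.15% of all stretches. No member's stretch held GATAA on either strand, against 16.9% of all, and 8.33% held AGGTCA on either strand, against 10% of all. In the whole 10 kb window around the TSS, members had 14 to 37 GATC sites with a median of 22, and all genes a median of 24.

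All 36 members had bulk read pairs, but only 15 had any in double positive cells. These 15 were Foxb1, Foxc2, Foxd3, Foxe1, Foxh1, Foxj1, Foxj2, Foxk1, Foxk2, Foxm1, Foxn2, Foxn4, Foxo3, Foxp4 and Foxs1. The other 21 members, 58.3% of all, had a bulk read pair and none in the double positive libraries, against 41.9% of the 19085 genes with a bulk read pair. In each of these 21, no anchor used by a double positive loop lay in the window, and the files do not show whether an anchor was absent there or present without a read pair. Double positive loops used 15082 of the 216081 anchors. If an anchor was present, a count of 0 among the 409248 double positive read pairs allows up to 7.33 counts scaled to a common library size (CPM). With the TMM normalization described below, the limit is 2.8 CPM. The 21 had 1 to 77 bulk read pairs with a median of 8, and the 15 had 10 to 205 with a median of 52. By library size 8 of the 21 had a pooled bulk value above that limit, and with TMM 20 of the 21 did, so whether the depth can show a difference depends on the scaling.

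**Figure D1:**
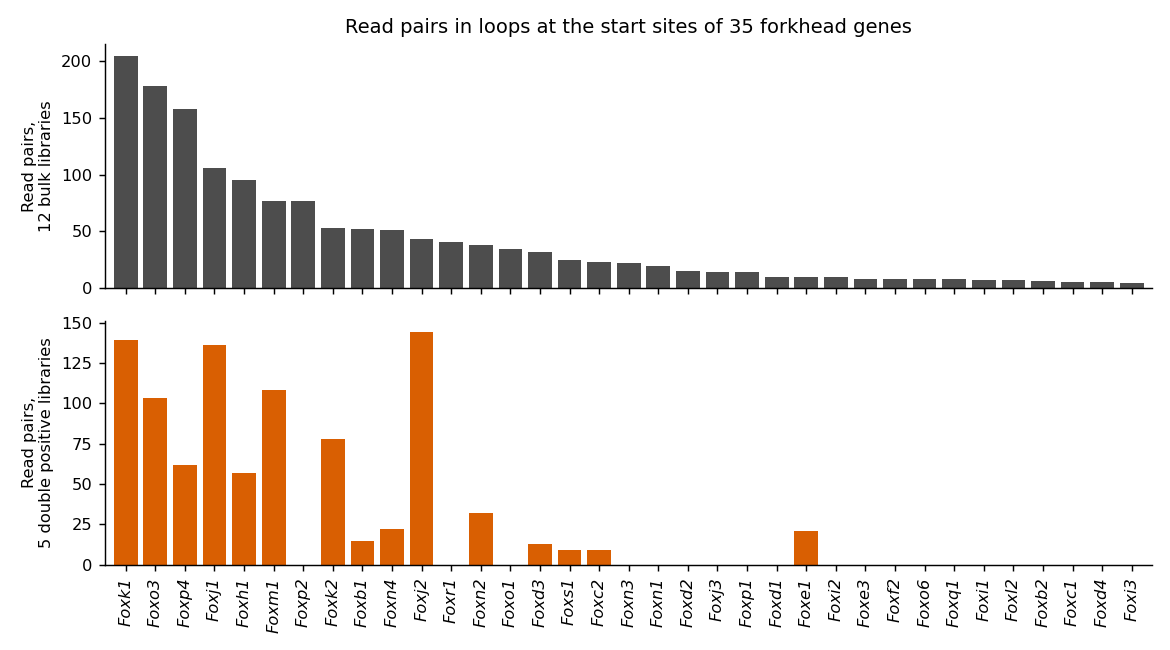
Pooled read pairs (vertical axes, counts on 2 scales) in loops at the start sites of 35 members (horizontal axis, ordered by bulk count), for 12 bulk libraries above and 5 double positive libraries below. Foxk1 had the most bulk read pairs (205) and Foxj2 the most double positive read pairs (144), and 20 of the members drawn have no bar in the lower panel.

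Most members without a double positive read pair had few read pairs in bulk. Foxc1 and Foxf2 of mesoderm had 5 and 8 bulk read pairs, and Foxd1, Foxd2 and Foxd4 had 10, 15 and 5. Foxi1, Foxi2 and Foxi3, known from ectoderm and inner ear, had 7, 10 and 4. Foxl2 of the ovary had 7, Foxe3 of the lens 8, Foxq1 8, Foxb2 6, Foxn1 of the thymus 19, Foxj3 14, Foxo6 8 and Foxp1 14. In all, 17 members had at most 19 bulk read pairs and did not meet the minimum set for the test. Some met it when more loops were counted. With every transcript start in place of the 5′ end of the gene, Foxp1, a regulator of B cells and heart, had a fitted log2 fold change of -7.85 (adjusted p = 1.44e-10, edgeR) and Foxj3 -4.68 (adjusted p = 0.000152). With a 10 kb window Foxd2, Foxi2, Foxj3, Foxl2, Foxn1 and Foxp1 were called lower, beside 6829 of 15038 genes. With no minimum 24 of the 36 members were called lower, against 48.9% of 19090 genes, and 20 of these 24 had no double positive read pair. A member at 0 in double positive cells could only be lower, and its fitted value depends on the prior count, so these calls are descriptions only. With the minimum, only Foxn3, Foxo1, Foxp2 and Foxr1 had enough bulk read pairs to be tested with none in double positive cells.

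The test, edgeR's quasi-likelihood test over all genes, was run where the 17 libraries together held 20 or more read pairs and 5 or more of them had one, which 19 of the 36 members met. A member could pass through its bulk count alone, as these 4 did. In double positive cells 1 member was higher (Foxj2), 9 were lower (Foxb1, Foxk1, Foxn3, Foxn4, Foxo1, Foxo3, Foxp2, Foxp4 and Foxr1), and 9 were not called at an adjusted p under 0.05. Thus 5.26% of tested members were higher, against 19.3% of 13109 genes tested, and 47.4% were lower, against 37.7%. Foxn3, Foxo1, Foxp2 and Foxr1, at 0 in double positive cells, could only be lower, as could any other gene at 0 there. The shares of lower genes are therefore descriptions only. Of the 15 tested members with a double positive read pair, Foxb1, Foxk1, Foxn4, Foxo3 and Foxp4 were lower. The median log2 fold change (double positive minus bulk) was -1.15 over the 19 members and -0.35 over all tested genes. With the 4 genes at 0 put at the bounds given below, the members' median was again -1.15. It could not move, since each bound also lies below that value. Among genes with a double positive read pair the median was -0.67 over 15 members and -0.01 over 10814 genes.

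The scaling of the libraries carries much of these directions. TMM normalization, used throughout, makes the middle of the trimmed genes equal between groups, and CPM are on that scale below. With library size alone, the median of all tested genes moved by 1.92 to 1.57, 75.0% of the called genes were higher in place of 33.9%, and 10 members were higher and 4 lower. Called members with read pairs in both groups are therefore also given relative to the median tested gene. Foxj2 was higher under both scalings. Lower with TMM, Foxk1 (adjusted p = 5.31e-06, edgeR), Foxo3 (adjusted p = 0.000248) and Foxp4 (adjusted p = 0.0498) were called higher with library size alone. Foxn4 and Foxb1 had positive log2 fold changes there (0.78 and 0.17) and were not called.

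**Figure D2:**
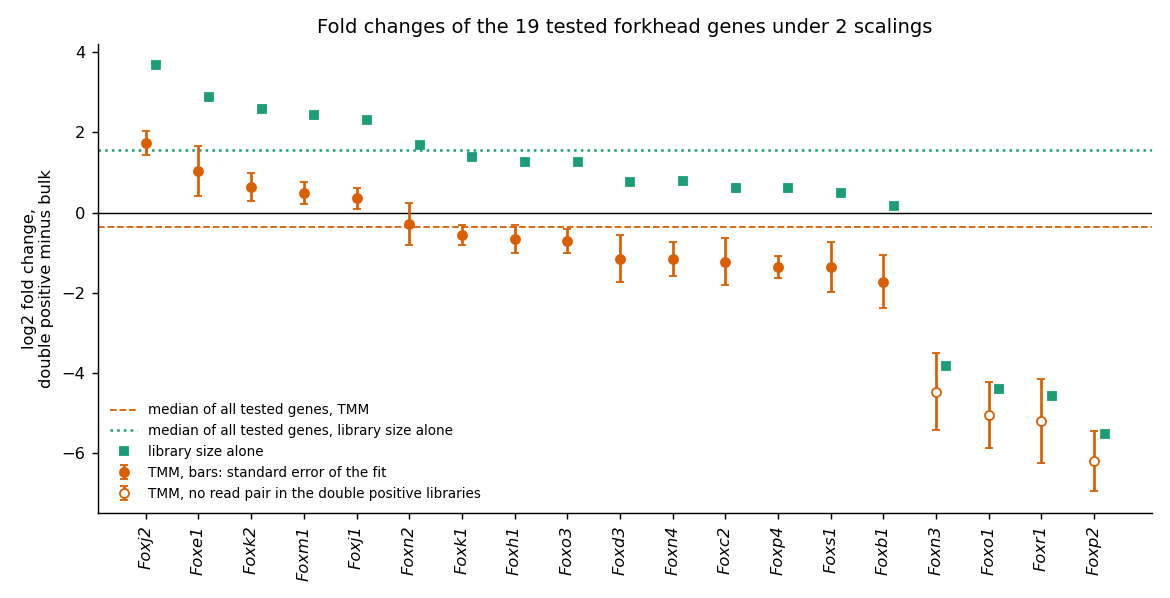
log2 fold change of double positive over bulk libraries (vertical axis) for the 19 tested members (horizontal axis), with TMM (circles, bars are standard errors of the fit, open where no double positive read pair was found) and with library size alone (squares). The 2 horizontal lines off 0 are the medians of all tested genes under each scaling (-0.35 and 1.57), and Foxj2 lies above both lines.

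Foxj2, a widely expressed activator whose gene spans chr6:122769932-122795384 on the plus strand, was the only member called higher. In the 5 double positive libraries it had 164, 141, 98.4, 139 and 111 CPM, from 50, 31, 14, 19 and 30 read pairs. In the 12 bulk libraries it had 0 CPM at the lowest, 36.4 at the median and 70.4 at the highest, from 43 read pairs in all. Every double positive library was above every bulk library, which held for 5.95% of the tested genes. The means were 131 ± 26.0 CPM (SD, n = 5) and 37.5 ± 18.2 (SD, n = 12), with a log2 fold change of 1.73 (SE 0.29, adjusted p = 3.08e-06, edgeR). This is 2.08 above the median tested gene and higher than the value of 95.7% of tested genes. The 6 other tested genes within 1 Mb had a median of -0.75, on the other side of 0 from Foxj2.

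Most Foxj2 read pairs of double positive cells lay in 3 short loops. The anchor over the TSS and an anchor 6.9 kb inside the gene were joined by 40 double positive and 3 bulk read pairs. An anchor centred at -8.6 kb from the TSS, outside protein-coding genes, was joined to the TSS anchor by 29 and 6 read pairs and to the anchor inside the gene by 35 and 4. These 3 loops are the tested Foxj2 loops, and each was called higher in double positive cells. They reached the minimum for the test mainly through their double positive read pairs, so these calls are descriptions only. Their log2 fold changes were 2.96 (SE 0.63, adjusted p = 1.45e-05) for the TSS with the anchor inside the gene, 1.73 (SE 0.60, adjusted p = 0.00803) for the upstream anchor with the TSS, and 2.5 (SE 0.62, adjusted p = 0.000178) for the upstream anchor with that inside the gene. Of the gene's read pairs, 44.4% in double positive cells and 23.3% in bulk involved the upstream anchor. The gene's median span was 15.5 kb in double positive cells and 53.8 kb in bulk. With loops of at least 20 kb only, the log2 fold change of Foxj2 was 0.52 (adjusted p = 0.333, edgeR), so the call was not reached without shorter contacts. An anchor at -16.8 kb, at the start of the glucose transporter gene Slc2a3, had 15 double positive read pairs and 1 bulk read pair with Foxj2.

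Foxk1 and Foxk2, repressors linked to growth and glycolysis genes, differed in count. Foxk1 had the most read pairs of the members over both groups, with 164, 118, 134, 94.8 and 115 CPM in double positive libraries. Bulk libraries had 106 CPM at the lowest, 184 at the median and 284 at the highest. The groups overlapped, with 7 bulk libraries above the highest double positive library. The means were 125 ± 25.9 CPM (SD, n = 5) and 188 ± 62.7 (SD, n = 12), a log2 fold change of -0.56 (SE 0.24, adjusted p = 0.0411, edgeR) that lay 0.21 below the median tested gene and was 1.39 with library size alone. The call was lost when any of bulk replicates 3, 4, 6, 8 and 12 or double positive replicates 2, 3, 4 and 5 was left out, with adjusted p of 0.0583 to 0.105. It was also lost with DESeq2 (0.0872), TMMwsp (0.194), no minimum (0.0573), thinned libraries (0.23), every transcript start (0.18), loops of at least 20 kb (0.129), the replicate block (0.159) and the same 10 libraries without it (0.0715).

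The Foxk1 loops that were tested were not called with TMM, and were called higher by library size alone. The anchor at -34.1 kb, outside protein-coding genes, was joined to the TSS anchor by 32 bulk and 50 double positive read pairs (log2 fold change 0.25, SE 0.39, adjusted p = 0.600). Anchors 14.4 and 38.5 kb inside the gene had 22 and 24 bulk and 25 and 27 double positive read pairs (-0.21, SE 0.47, and -0.22, SE 0.46). These 3 partners (upstream, 14.4 kb and 38.5 kb) held 36%, 18.0% and 19.4% of read pairs in double positive cells and 15.6%, 10.7% and 11.7% in bulk. Bulk read pairs lay in 80 distinct loops against 20, but bulk pools 1616066 read pairs of 12 libraries against 409248 of 5. Double positive loops also used only 15082 of the 216081 anchors, so a difference in contact pattern was not tested.

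**Figure D3:**
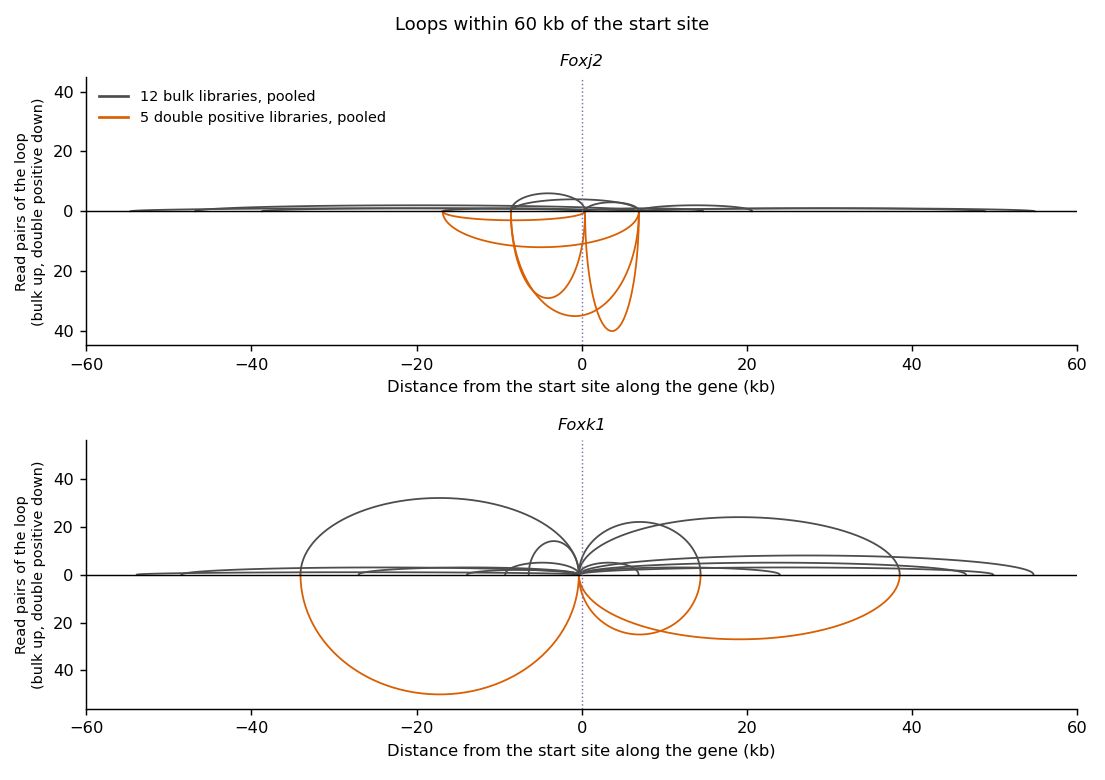
Loops within 60 kb of the start sites of Foxj2 and Foxk1 (horizontal axis, distance from the TSS in kb, positive along the gene), with bulk read pairs drawn upward and double positive read pairs downward (vertical axis, pooled counts). The Foxj2 loops to the anchor inside the gene and to the upstream anchor reach 40 and 29 double positive read pairs, and the 3 main Foxk1 loops appear in both groups.

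Foxk2 had 75.6, 63.6, 70.3, 117 and 55.7 CPM in double positive libraries, and 0 CPM at the lowest, 48.1 at the median and 94.5 at the highest in bulk. Double positive replicate 4 was above all bulk libraries, and the others overlapped with them. The log2 fold change was 0.64 (SE 0.34, adjusted p = 0.108, edgeR) and was not called. Foxk2 was called higher with a 2.5 kb window (1.29, adjusted p = 0.0283), TMMwsp (0.82, adjusted p = 0.0373) and library size alone (2.57, adjusted p = 4.76e-09). It was 0.26 with the replicate block and 0.24 in the same 10 libraries without it, and not called in either. Its main double positive partners were an anchor at -2.3 kb (16 double positive and 3 bulk read pairs) and an anchor at -18.7 kb at the start of Narf, the neighbouring gene (17 and 6).

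Among the FoxO genes, Foxo3 gave the result that depended most on which loops were counted. Foxo3 (chr10:41901647-41996561, minus strand) had 88.8, 99.9, 63.2, 117 and 108 CPM in double positive libraries. Bulk libraries had 58.7 CPM at the lowest, 128 at the median and 362 at the highest, and the groups overlapped. The means were 95.3 ± 20.7 (SD, n = 5) and 152 ± 93.5 (SD, n = 12), a log2 fold change of -0.72 (SE 0.30, adjusted p = 0.0378, edgeR) that lay 0.37 below the median tested gene and was 1.25 with library size alone. Bulk replicates 3 and 7 had 51 and 33 of the 178 bulk read pairs. Without either of them the log2 fold change was -0.51 and -0.53, with adjusted p of 0.128 and 0.0929. The call was also lost without double positive replicates 1, 2, 3 or 5, with DESeq2 (0.142), TMMwsp (0.13), thinned libraries (0.0932), a 10 kb window (0.186), every transcript start (0.136), loops of at least 20 kb (0.0652) and the replicate block (0.0511).

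Its leading partner was near in bulk and far in double positive cells, and the files do not show whether the near anchors had been called in double positive cells. The bulk loop with the most read pairs joined the TSS to an anchor at -22.8 kb, with 11 bulk and 0 double positive read pairs. The double positive loop with the most read pairs reached the start site of Lace1, 201 kb away, with 18 double positive and 2 bulk read pairs. Single double positive libraries had 5, 2, 3, 3 and 5 of these 18. This loop had a log2 fold change of 2.34 (SE 0.70, adjusted p = 0.00249, edgeR). It reached the minimum for the test mainly through its double positive read pairs, so the call is a description only. Further double positive partners were the start sites of Snx3, with 9 double positive and 2 bulk read pairs, and of Cep57l1 and Sesn1, with 9 and 1. Sesn1, itself a known FoxO target gene, lies at 465.6 kb along the direction of the gene. The other anchor lay within 5 kb of the start site of another gene for 92.2% of Foxo3 read pairs in double positive cells and 9.55% in bulk, and the median span was 561 kb and 222 kb. When only loops between anchors used in both groups were counted, Foxo3 was higher in double positive cells, with a log2 fold change of 0.99 (adjusted p = 0.028, edgeR). In that setting the median of the 9642 genes tested was 0.30, and the cause of the reversal was not tested. The choice of shared anchors also uses the read pairs themselves.

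Foxo1, the FoxO gene best known from metabolism, had 34 bulk read pairs in 11 of 12 libraries (0 CPM at the lowest, 32.4 at the median and 65.4 at the highest) and 0 in each double positive library. With 3 read pairs as the floor over the group it was at least 11.1-fold lower on the TMM scale and at least 2.87-fold lower with library size alone (fitted log2 fold change -5.05, adjusted p = 3.52e-06, edgeR). These bounds hold only if an anchor was called there in double positive cells, which is not known. The bulk loops of Foxo1 were long and scattered, with a median span of 442 kb and at most 2 read pairs in a loop.

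The autosomal Foxp genes follow. Foxp4 (chr17:48004082-48061594, minus strand), known from lung and gut development, had 72.3, 31.8, 56.2, 51.1 and 66.9 CPM in double positive libraries. In bulk it had 74.1 CPM at the lowest, 154 at the median and 213 at the highest. Every double positive library was below every bulk library, which held for 9.86% of the tested genes. The means were 55.7 ± 15.8 (SD, n = 5) and 145 ± 43.7 (SD, n = 12), a log2 fold change of -1.35 (SE 0.27, adjusted p = 5.58e-05, edgeR). This lay 1.00 below the median tested gene, while with library size alone the value was 0.61 (adjusted p = 0.0498).

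The Foxp4 window held 2 anchors, and only the one over the TSS had double positive read pairs. The loop between these 2 anchors, 6.09 kb long, had the most bulk read pairs, 11, and no double positive read pair. The partner with the most double positive read pairs was an anchor inside the gene, 36.9 kb from the TSS, with 12 double positive and 9 bulk read pairs. With loops between shared anchors only, the log2 fold change of Foxp4 was -0.13 (adjusted p = 0.825, edgeR). In that setting the median of the 9642 genes tested was 0.30, and the cause of the move was not tested.

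Foxp2, a regulator known from brain and speech circuits, had 77 bulk read pairs in 11 of 12 libraries, with 0 CPM at the lowest, 62.2 at the median and 154 at the highest. All 5 double positive libraries had 0. If an anchor was called there in double positive cells, Foxp2 was at least 25.2-fold lower on the TMM scale and at least 6.50-fold lower with library size alone. The fitted log2 fold change was -6.20 (adjusted p = 1.05e-08, edgeR). No other gene within 1 Mb of Foxp2 was tested, and its 59 bulk loops had a median span of 517 kb and at most 4 read pairs. Partners with 3 or 4 read pairs lay inside the gene, 77.1 and 284.7 kb from the TSS, and at -62.5 kb.

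Foxr1 and Foxn3 were the remaining tested members at 0 in double positive cells. Their bounds likewise hold only if an anchor was called there in double positive cells, which is not known. Foxr1 had 41 bulk read pairs, of which bulk replicate 3 held 25 (160 CPM, against a bulk median of 17.5 and a lowest value of 0). It was at least 13.4-fold lower on the TMM scale and at least 3.46-fold with library size alone (adjusted p = 6.22e-05, edgeR), and without bulk replicate 3 the fitted log2 fold change was -4.24 in place of -5.20 (adjusted p = 0.000295), and the bounds were 6.11-fold and 1.54-fold. The Foxr1 loop with the most read pairs, 38.0 kb long, had 4, all in that library. Foxn3, a checkpoint repressor, had 22 bulk read pairs, with 0 CPM at the lowest, 18.2 at the median and 66.9 at the highest. Its bulk loop with the most read pairs, 291 kb long, had 2. It was at least 7.21-fold lower on the TMM scale and at least 1.86-fold with library size alone (adjusted p = 0.000128, edgeR).

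**Figure D4:**
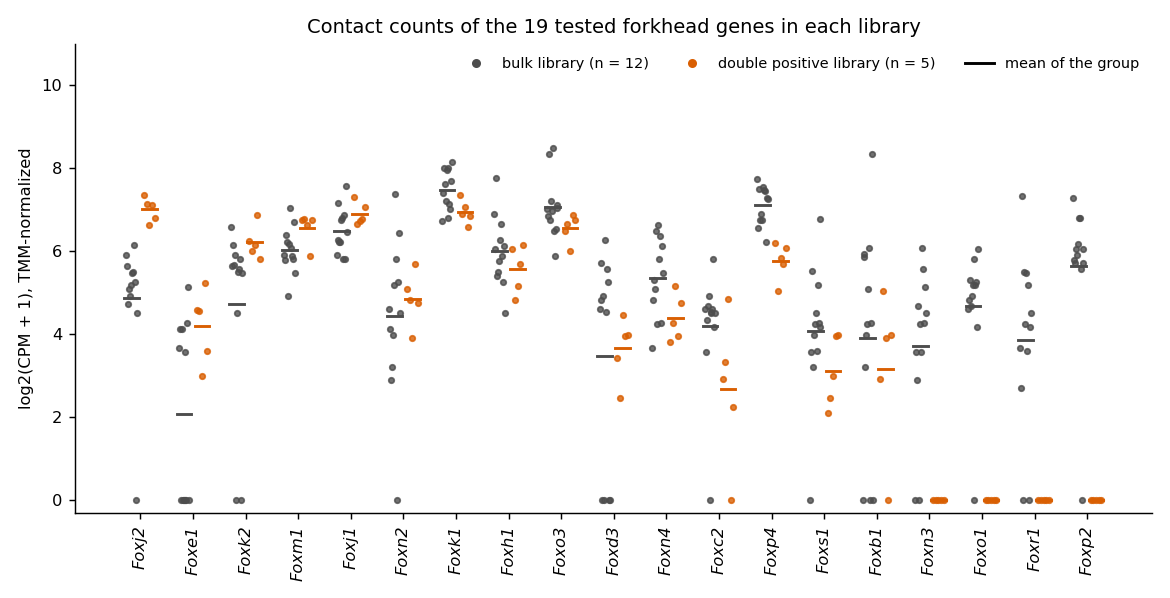
log2(CPM + 1) of each library (vertical axis, TMM scale) for the 19 tested members (horizontal axis, ordered by fold change), bulk in grey (n = 12) and double positive in orange (n = 5), with lines at the group means. Foxj2 and Foxp4 are the 2 members whose groups do not overlap, and Foxn3, Foxo1, Foxr1 and Foxp2 lie at 0 in all double positive libraries.

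Foxm1, the regulator of mitotic genes, had 108, 109, 98.4, 58.4 and 108 CPM in double positive libraries, and 29.5 CPM at the lowest, 63.0 at the median and 132 at the highest in bulk. The groups overlapped, and the log2 fold change of 0.48 (SE 0.27, adjusted p = 0.13, edgeR) was not called. Foxm1 was called higher with TMMwsp (0.66, adjusted p = 0.0335) and a 10 kb window (0.59, adjusted p = 0.0268). The same held with every transcript start (0.72, adjusted p = 0.0145) and library size alone (2.43, adjusted p = 5.16e-11). With loops of at least 20 kb Foxm1 was 0.03 (adjusted p = 0.944). Its loop of 5.14 kb to the start site of Tulp3, the next gene upstream, was higher, with 34 double positive and 10 bulk read pairs (log2 fold change 1.29, SE 0.52, adjusted p = 0.0243). That call was lost without bulk replicate 4 (adjusted p = 0.111) or double positive replicate 5 (0.0814). The loop reached the minimum for the test mainly through its double positive read pairs, so the call is a description only. The anchor at the Foxm1 TSS also lies within 5 kb of the start sites of Tulp3 and 5930416I19Rik, so its read pairs cannot be given to a single gene. Further double positive partners were Fkbp4, with 11 double positive and 3 bulk read pairs, and Tead4, with 7 and 0.

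Foxj1, the master regulator of motile cilia, had 158, 99.9, 105, 109 and 134 CPM in double positive libraries. Bulk libraries had 55.6 CPM at the lowest, 82.1 at the median and 189 at the highest, and the log2 fold change of 0.36 (SE 0.26, adjusted p = 0.237, edgeR) was not called. Its loop to the start site of Fam100b, 97.9 kb long, had 37 double positive and 7 bulk read pairs (log2 fold change 1.87, SE 0.55, adjusted p = 0.00175, edgeR). Every double positive library had 4 to 13 of these read pairs. The loop reached the minimum for the test mainly through its double positive read pairs, so the call is a description only. Bulk loops with the most read pairs instead joined anchors 8.1 and 16.3 kb downstream, with 8 bulk and 0 double positive read pairs each. As for Foxo3, these near partners had no double positive read pair. With loops of at least 20 kb only, Foxj1 was higher (log2 fold change 0.69, adjusted p = 0.0246, edgeR).

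**Figure D5:**
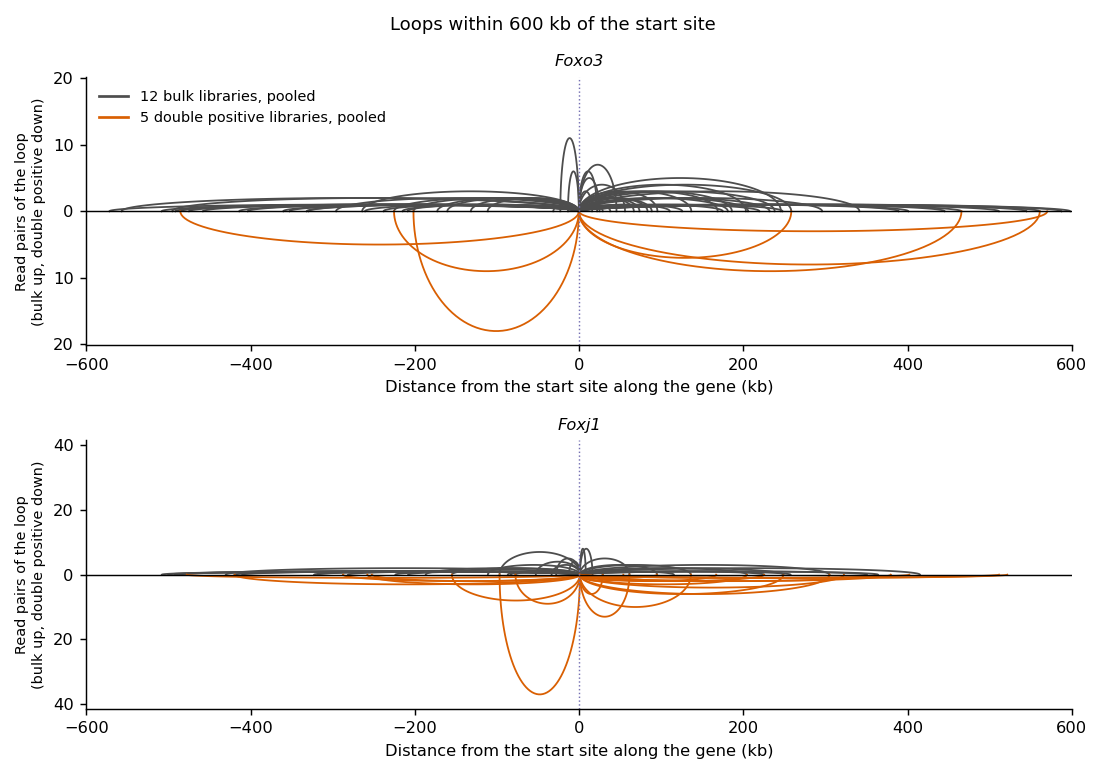
Loops within 600 kb of the start sites of Foxo3 and Foxj1 (horizontal axis, distance from the TSS in kb, positive along the gene), with bulk read pairs drawn upward and double positive read pairs downward (vertical axis, pooled counts). The tallest bulk arcs lie near the start site (11 and 8 read pairs), and the tallest double positive arcs reach Lace1 (18) and Fam100b (37).

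The partners of the members followed the whole data set in this respect. Of the 15 members with read pairs in both groups, 13 (86.7%) had a larger share of double positive than of bulk read pairs whose other anchor lay within 5 kb of another gene's start site, against 96.9% of 10814 genes. The exceptions were Foxd3 (23.1% and 28.1%) and Foxj2 (25.0% and 30.2%). The median share was 63.6% in double positive cells and 28.1% in bulk for members, and 80.0% and 35.2% for all these genes. Of the anchors used by double positive loops 67.1% lay this near a start site, against 11.4% of bulk anchors.

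Foxe1, a thyroid and endoderm factor, had 23.0, 22.7, 7.03, 36.5 and 11.1 CPM in double positive libraries from 21 read pairs. In bulk it had 0 CPM at the lowest, 5.48 at the median and 34.3 at the highest from 10 read pairs. The groups overlapped, and the log2 fold change of 1.04 (SE 0.62) was not called (adjusted p = 0.149, edgeR). Of its double positive read pairs, 52.4% joined the start site of 5830415F09Rik, 46.6 kb downstream, by 11 read pairs against 2 in bulk.

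The remaining tested members were Foxh1, Foxn4, Foxb1, Foxc2, Foxd3, Foxs1 and Foxn2. Foxh1, the Nodal partner, had 57 double positive and 95 bulk read pairs and a log2 fold change of -0.67 (adjusted p = 0.097, edgeR), or 1.26 with library size alone and 0.48 with a 10 kb window. It was called lower with shared anchors (-0.96, adjusted p = 0.0196), with the replicate block (-0.89, adjusted p = 0.0419) and in the same 10 libraries without it (-0.97, adjusted p = 0.0324). Bulk replicate 3 held 34 of its 95 bulk read pairs, and without it the value was -0.32. Its anchors also lie within 5 kb of the start sites of Kifc2 and Ppp1r16a. Foxn4, known from retina and spinal cord, was lower (22 and 51 read pairs, log2 fold change -1.16, or -0.82 relative to the median tested gene, SE 0.43, adjusted p = 0.0196, edgeR), but not without double positive replicate 1 (adjusted p = 0.0723), with a 2.5 kb window (0.307), with shared anchors (0.697), with loops of at least 20 kb (0.052), with the replicate block (0.24) or in the same 10 libraries without it (0.179). Foxb1, a gene of the ventral brain, was lower (15 and 52 read pairs, log2 fold change -1.72, or -1.37 relative to the median tested gene, SE 0.66, adjusted p = 0.0252, edgeR). Bulk replicate 11 held 19 of its 52 read pairs, and without it the value was -1.04 (adjusted p = 0.132). The call was also lost without double positive replicate 1 or 4 (adjusted p = 0.0796 and 0.0627), with DESeq2 (0.0929), a 2.5 kb window (0.0982), every transcript start (0.055), shared anchors (0.185), the replicate block (0.215) and the same 10 libraries without it (0.0943). Foxc2 of mesoderm (-1.22), Foxd3 of neural crest and pluripotent cells (-1.15), Foxs1 of vessel cells (-1.36) and Foxn2 (-0.28) were not called. Without double positive replicate 3 Foxc2 was lower (-1.85, adjusted p = 0.0148, edgeR). Foxd3 passed the threshold without bulk replicate 4 (-1.29, adjusted p = 0.0442, edgeR), and Foxs1 without any of bulk replicates 1, 2, 4 and 8 or double positive replicate 5 (-1.70 to -1.43). Foxs1 was also called lower with a 10 kb window (-2.08, adjusted p = 0.000337, edgeR) and a 2.5 kb window (adjusted p = 0.045). Foxc2 was called lower with a 10 kb window (adjusted p = 0.00178) and with loops of at least 20 kb (0.0395). Foxd3 was called lower with loops of at least 20 kb (-1.73, adjusted p = 0.0151). In the main test, other genes within 1 Mb had medians of -1.95 around Foxs1 (44 genes) and -4.53 around Foxd3 (7 genes). The medians were -0.49 around Foxc2 (17 genes) and 0.14 around Foxn2 (9 genes). Bulk replicate 7 held 15 of the 38 bulk read pairs of Foxn2, and without it the value was 0.31, as it was also positive with the replicate block (1.08). Loops joined 2 members in 2 cases, Foxc1 with Foxf2 and Foxd2 with Foxe3, by 1 bulk read pair each.

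At the level of single loops, 9 loops of members were tested, and 6 (66.7%) were higher and 0 lower in double positive cells, against 38.1% and 22.4% of 5369 loops tested. The 6 reached the minimum for the test mainly through their double positive read pairs, so their share is a description only. The median log2 fold change of all 9 was 1.73, and that of all tested loops was 0.78 with TMM and 2.99 with library size alone. These 9 belong to Foxj2, Foxk1, Foxm1, Foxo3 and Foxj1, and the 3 of Foxj2 share anchors with each other, as do those of Foxk1. By library size alone all 9 were higher, and DESeq2 called 5 of the 9 higher. With no minimum 1 of the 9 was higher, with the 10 libraries that share replicate numbers 2, and with a minimum of 50 read pairs 0 of the 2 still tested.

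The Foxa genes were counted in the same way for comparison. Foxa2 had 181, 191, 183, 139 and 219 CPM in double positive libraries and 47.3 CPM at the lowest, 68.5 at the median and 188 at the highest in bulk, a log2 fold change of 1.32 (SE 0.25, adjusted p = 2.62e-05, edgeR). Foxa3 had 100 double positive and 49 bulk read pairs (1.01, SE 0.33, adjusted p = 0.00737, edgeR, and 0.0626 without double positive replicate 1). Foxa1 had 18 and 15 (0.24, SE 0.59, adjusted p = 0.755). The Foxa3 anchor with double positive read pairs also lies within 5 kb of the start site of Sympk, so its read pairs cannot be given to a single gene. The difference between the Foxa genes and the other members was not tested.

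The genes that encode the sort markers were not called with TMM. Epcam had 25 double positive and 13 bulk read pairs (log2 fold change 0.86, SE 0.57, adjusted p = 0.201, edgeR), and Cd38 had 51 and 36 (0.47, SE 0.43, adjusted p = 0.352). By library size alone both were higher, with 2.75 for Epcam (adjusted p = 1.88e-05) and 2.38 for Cd38 (adjusted p = 1.89e-06), and with shared anchors Cd38 was higher (1.74, adjusted p = 0.0102). Endoderm markers were higher for 9 of 15 tested genes and lower for 0, led by the keratins Krt18 (2.77, adjusted p = 5e-14) and Krt8 (2.77, adjusted p = 5.88e-10), and all 15 were higher by library size alone. Of the 6 not called with TMM, Sox17 (-0.75), Lama1 (-0.60) and Gata6 (-0.16) had negative values. With shared anchors 11 of 15 endoderm markers were higher and 0 lower. Sox17 (3.97, adjusted p = 0.000864, edgeR) and Lama1 (1.56, adjusted p = 0.0125, edgeR) were higher there, and Gata6 was 1.08 and not called. The summed level of the endoderm markers was 1920, 2170, 2060, 1990 and 2350 CPM in double positive libraries and 500 to 845 CPM in bulk. Krt18 was the most abundant, and Dab2 was at 0 in both groups. Col4a1 and Col4a2 count the same 256 double positive read pairs. All double positive libraries thus lay above all bulk libraries in this sum.

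Markers of other cell types were read beside the members. Of 12 tested neural markers 9 were lower and 0 higher, led by Pou3f2 (-5.33, adjusted p = 6.62e-15) and Neurod1 (-4.77, adjusted p = 9.14e-12), neuronal transcription factors. The counts were 5 lower and 2 higher with library size alone. Their summed level was 293, 331, 260, 336 and 405 CPM in double positive libraries and 869 to 1970 CPM in bulk, with Nes the most abundant over both groups together, Pou3f2 in bulk, and Sox3 at 0 in both groups. All 4 tested mesenchyme and vessel markers were lower, but Pdgfra, Pecam1 and Prrx1 were at 0 in double positive cells, had passed through bulk alone and could only be lower. Meox1 was lower with 17 double positive and 86 bulk read pairs (-2.25, adjusted p = 2.1e-05), and with shared anchors it was 0.50 and not called. In all, 10 of the 12 listed genes had no double positive read pair. Their summed level was 23.0, 40.9, 28.1, 7.30 and 14.9 CPM against 167 to 435 CPM in bulk, with Meox1 the most abundant. Pluripotency markers were 1 higher (Klf4) and 2 lower (Sall4 and Esrrb) of 4, or 2 higher and 1 lower by library size alone, with a summed level of 182 to 295 CPM against 473 to 870 CPM, Sall4 the most abundant, and Nanog, Esrrb and Dppa4 at 0. The part of these cell types in the lower values of Foxp2, Foxp4, Foxb1, Foxn4 and the other members was not tested.

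Genes known to act with the members were read from the same fit, in which 19.3% of all tested genes were higher and 37.7% lower with a median of -0.35. The counts of the lists below are descriptions to be read beside these shares. Of the PI3K-AKT genes that control FoxO proteins, 12 of 14 were tested, 0 were higher and 6 lower, with a median of -0.89. Among the lower genes, Irs2, an adaptor of the insulin receptor, had 3 double positive and 78 bulk read pairs (-4.26, adjusted p = 9.39e-07). The counts were 6 higher and 3 lower with library size alone, and 1 higher and 3 lower of 11 with shared anchors (median 0.34). Sgk1, among the 6 lower, was at 0 in double positive cells and could only be lower. Of FoxO targets 1 was higher and 4 lower of 11 tested, with a median of 0.28. The higher gene was Cdkn1a, a cell cycle inhibitor (0.65, adjusted p = 0.0156). Bcl2l11, a cell death gene, and Cat, the catalase gene, had 42 and 45 bulk and 0 double positive read pairs. These last 2 could only be lower. With library size alone 8 targets were higher and 2 lower, and with shared anchors 2 of 9 were higher and 0 lower. Cdkn1a was not called with shared anchors (0.70, adjusted p = 0.0525, edgeR).

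The Nodal pathway that Foxh1 serves was the list with the most negative median among those that act with a member, -3.54 over 9 tested genes, with 6 lower and 1 higher. Of the 6, Nodal, Smad2 and Mixl1 were at 0 in double positive cells and could only be lower, and with shared anchors the median was -1.19 over 6 genes, with 3 lower and 1 higher. Mixl1, a gene of the primitive streak, had 170 bulk and 0 double positive read pairs (fitted -7.41, adjusted p = 2.57e-12), and Lefty2, a Nodal inhibitor, had 148 and 3 (-5.29, adjusted p = 1.32e-10). Tdgf1, the Nodal co-receptor, was higher with 116 double positive and 63 bulk read pairs (0.84, adjusted p = 0.0227). The list's summed level was 225 to 270 CPM in double positive libraries and 616 to 1350 CPM in bulk. With library size alone 5 were lower and 3 higher. Foxh1 itself was not called. The median of -3.54 is the value of Lhx1, which had 126 bulk and 10 double positive read pairs. The paper ranks Lhx1 high specifically in a subpopulation that it ties to neuron development. The part of such cells in this list's values was not tested.

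Cell cycle genes under Foxm1 were 3 higher and 5 lower of 11 tested, with a median of 0.14. The kinase genes Aurkb (1.08, adjusted p = 1.78e-05) and Nek2 (-3.01, adjusted p = 6.65e-12) and the anaphase gene Cdc20 (0.75, adjusted p = 0.00662) moved in different directions, and Aurka, another mitotic kinase gene, was lower (-2.56, adjusted p = 3.33e-10). Cenpf, among the 5 lower, was at 0 in double positive cells and could only be lower. With shared anchors 1 of 10 was higher and 3 lower. In that setting Aurkb was 0.25 (adjusted p = 0.405, edgeR) and Cdc20 0.38 (adjusted p = 0.259), and neither was called. Nek2 (-1.69, adjusted p = 7.32e-06) and Aurka (-1.34, adjusted p = 0.000676) were called lower there. With library size alone 6 were higher and 2 lower.

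Corepressors that forkhead proteins recruit were 3 higher and 5 lower of 12 tested, with a median of -0.40. Tle2 (1.76, adjusted p = 1.68e-05) and Sin3a (1.69, adjusted p = 4.18e-06) were higher, and Ctbp2 (-2.21, adjusted p = 2.95e-06) was among the lower genes. By library size alone, 7 were higher and 2 lower, and with shared anchors 3 of 9 were higher and 1 lower, with Ctbp2 at -0.51 (adjusted p = 0.396). Hdac2 and Sin3b, among the 5 lower, were at 0 in double positive cells and could only be lower. Genes of the cilium programme of Foxj1 were 2 higher and 3 lower of 10 tested, with a median of -0.77, and 6 higher and 2 lower with library size alone. The regulators Rfx1 (2.22, adjusted p = 6.97e-05) and Rfx2 (1.32, adjusted p = 0.00221) were higher, and the axoneme genes Tekt1 and Dnahc5 had 62 and 26 bulk and 0 double positive read pairs. Tekt1 and Dnahc5, among the 3 lower, could only be lower. Rfx3, a regulator of the same family as Rfx1 and Rfx2, was the remaining lower gene (-1.92, adjusted p = 0.000169). With shared anchors 2 of 5 genes were higher and 0 lower, and Rfx3 was 0.30 and not called.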

How the data were processed

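The authors aligned H3K27ac HiChIP reads of 12 bulk and 5 double positive libraries to mm9 with HiC-Pro and called peaks and loops with hichipper. The deposited values are counts of read pairs per pair of anchors, without normalization, and list only loops with a read pair. Anchors that overlapped between the 17 libraries were merged, giving 216081 anchors with 1211657 loops, and 700 read pairs whose anchors became 1 were dropped. Of 432162 anchor edges 432159 lay at GATC sites. Counts were summed per protein-coding gene (GENCODE annotation of mm9, the 5′ end of the gene as TSS) over loops with an anchor within 5 kb, each loop once. Anchors that hold several start sites count for each gene. Of 22367 genes 19090 had an anchor.

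Tests were limited to genes and loops that had 20 or more read pairs, found in 5 or more libraries, and used edgeR 4.0.16 under R 4.3.3 (TMM, quasi-likelihood, Benjamini-Hochberg over all features tested, adjusted p under 0.05). TMM factors were 0.524 to 0.792 in bulk and 2.56 to 2.79 in double positive libraries. Tables and promoter sequences, read from the mm9 genome, used scipy 1.17.1, pandas 2.3.3 and numpy 2.4.6 under Python 3.11.15. In simulated data of the 17 libraries the gene test recovered 61% of 4-fold and 10% of 2-fold changes over 12745 genes with 4.05% false calls, and the loop test 25% and 2% over 4610 loops with 6.9%. The simulation changed 100 features by each fold, evenly up and down, and gave both groups the same mean elsewhere, with a fixed dispersion. It held no wide shift between groups such as the TMM factors show, so these rates need not hold for the real libraries. Counts of every pair of libraries within a group differed beyond sampling noise (chi-square, largest p 2.38e-68 in bulk and 0.000539 in double positive).

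The members and the gene lists were chosen with earlier results of these data known. Values by library are given for the tested members with the smallest p, up to 5 in each direction, and the 4 with the highest mean CPM, and in each list up to 2 called genes in each direction are named. Values of 1 member and 2 listed genes are counted but not reported here by name. Other members and partners were named after their values were seen, as parts of counts. Gene symbols are those of the annotation (Mcidas is Gm6320, Gmnc Gm606, Dnah5 Dnahc5 and Dnah11 Dnahc11 there), and 13 of 14 neural markers matched. Alternatives were DESeq2 1.42.0, library size alone, TMMwsp, a minimum of 50 read pairs, no minimum, libraries thinned to 50508 read pairs, windows of 2.5 and 10 kb, every transcript start, loops of at least 20 kb, loops between shared anchors, the replicate number as a block, and each library left out in turn.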

Additional observations from a re-analysis of the deposited data

Results flagged for a closer look

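Foxm1 had 58.4 CPM in double positive replicate 4, while the other 4 double positive libraries had 98.4 to 109 CPM. The gap was 0.791 of the range of the group, above the limit of 0.71 for 5 libraries. Of 20 groups of double positive values examined, 1 was set apart in this way, and chance alone sets apart about 1 in 20.

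Foxo4 and Foxp3 lie on chromosome X and were outside the comparison of autosomal members. Foxo4, a FoxO gene, had 56 double positive and 15 bulk read pairs, a log2 fold change of 1.92 (SE 0.44, adjusted p = 0.000271, edgeR), or 2.26 above the median tested gene. Foxp3, known from regulatory T cells, had 75 and 31 read pairs and a log2 fold change of 1.31 (SE 0.39, adjusted p = 0.00381, edgeR). Genes tested within 1 Mb had medians of 1.58 around Foxo4 (7 genes) and 1.4 around Foxp3 (27 genes). Over the 131 tested genes of chromosome X the median was 1.38, and 58.0% were higher, against 19.3% of all tested genes.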

How the results depend on the processing

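With TMM, 2531 genes were higher and 4940 lower in double positive cells, 1 member was higher and 9 lower, and 2044 loops were higher and 1203 lower. With library size alone 8130 genes were higher and 2708 lower, 10 members were higher and 4 lower, 4129 loops were higher and 740 lower, and the log2 fold changes of Foxp4 (0.61), Foxk1 (1.39), Foxo3 (1.25) and the Foxk1 loops of 14.7 kb (2.08) and 38.9 kb (2.06) were positive. By construction this setting leaves out the TMM factors. TMMwsp gave 3 members higher (Foxj2, Foxk2 and Foxm1) and 7 lower, beside 3119 and 4535 of 13109 genes, and DESeq2 gave 1 higher and 6 lower, beside 2755 and 4628. With a minimum of 50 read pairs, which tests fewer features, 2866 genes were lower, 334 loops were higher and 197 lower, 0 member loops were higher, and the Foxk1 loop of 33.7 kb was -0.23. With no minimum 9333 genes and 24 members were lower, 44 loops lower and 1 member loop higher, and the Foxk1 loops of 14.7 and 38.9 kb were 1.09 and 1.08. In thinned libraries 2553 genes were higher, 2036 genes and 4 members were lower, 1104 loops were higher and 120 lower, and these Foxk1 loops were 0.11 and 0.61. With a 2.5 kb window 2 members were higher and 5 lower, beside 2485 and 4013 of 12075 genes. With a 10 kb window 2 were higher and 16 lower, beside 2835 and 6829 of 15038 genes, and Epcam (-0.41) and Cd38 (-0.03) were negative. With every transcript start 2 members were higher, beside 2906 of 14115 genes. With shared anchors 1868 genes were higher and 1082 lower, 2 members (Foxj2 and Foxo3) were higher and 2 (Foxh1 and Foxk1) lower, and Foxo3 was 0.99. With loops of at least 20 kb Foxa1 was -0.60. The cause was not tested where the construction of a setting does not show it.

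Replicate numbers did not pair the samples (correlations of -0.00923 to 0.0147). With the replicate block, over the 10 libraries with shared numbers, 2985 genes and 3 members were lower, 827 loops were higher and 429 lower, 2 member loops were higher, and the Foxk1 loop of 33.7 kb was -0.23. The same 10 libraries with no replicate block gave 3207 genes and 4 members lower, 1142 loops higher and 486 lower, 2 member loops higher, and -0.30 for that loop.

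With each library left out in turn, 2165 to 2649 genes were higher and 4687 to 4967 lower, 1 member was higher and 6 to 10 lower, 1708 to 2040 loops were higher and 1156 to 1227 lower, and 5 to 6 member loops were higher. Foxa1 ranged from -0.14 to 0.47 and the Foxk1 loop of 14.7 kb from -0.41 to 0.12. Foxj2 was called higher in 29 of 30 alternatives (0.52 to 3.67 over all 30). Foxn3, Foxo1, Foxp2 and Foxr1, at 0 in double positive cells, could only be lower wherever they were tested. In simulated data, which held no wide shift between the groups, 10% of 2-fold changes of genes were recovered, over all counts together.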

Other observations

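Forkhead genes that the naming rule leaves out had these values. Foxf1a, a gene of gut mesoderm whose symbol ends in a letter, had 15 bulk read pairs in 8 libraries and 0 in double positive libraries. Foxl1, also of gut mesoderm and annotated as a pseudogene in the annotation used here, had 16 bulk and 0 double positive read pairs. Both lie on chromosome 8, on either side of Foxc2, which had 23 bulk and 9 double positive read pairs. Foxr2 on chromosome X had no read pair in either group.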
